A study of Mus musculus with 2 samples.

Results

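T cell costimulatory receptors are surface proteins that add a second signal to the one from the T cell receptor. The gene group described here was 6 such receptors and 1 ligand, taken by their symbols from the gene list of the matrix, and all 7 were found among its 31053 genes. Tnfrsf9 (4-1BB), Tnfrsf18 (GITR), Tnfrsf4 (OX40) and Cd27 belong to the TNF receptor superfamily, Cd28 and Icos to the CD28 family, and Tnfsf9 (4-1BB ligand) encodes the ligand of Tnfrsf9. TNF receptor family members recruit TRAF adaptors and feed into NF-kB, while CD28 and ICOS bind B7-family ligands and recruit phosphatidylinositol 3-kinase. Cd28 and Cd27 are known as receptors that resting T cells already carry, whereas Tnfrsf9, Tnfrsf4, Tnfrsf18 and Icos are known to be induced by activation and to be abundant on regulatory T cells in mouse tumours. The ligands are carried mainly by antigen-presenting cells.

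Viable CD45+ cells, that is white blood cells, came from tumours of B16F10, a transplantable mouse melanoma line, 2 weeks after injection, and their RNA was counted cell by cell from the 3′ end in droplets. The hosts were mice of genotype LysM-cre x RelloxP/loxP, in which LysM-cre, active in myeloid cells, deletes the NF-kB gene Rel, and mice of genotype LysM-cre x Rel+/+, which carry the same Cre. There was 1 library per genotype, each of 5 pooled tumours, so differences between the mice of a pool are not seen and no test between samples was possible. The barcodes end in 1 or 2, and nothing in the sources used here ties these numbers to a genotype. They are called library 1 and library 2, and no comparison of genotypes was made.

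Library 1 held 7688 barcodes with a median of 1588 unique molecular identifiers (UMIs, counts of captured RNA molecules), and library 2 held 10564 with a median of 4290. The libraries had 3609 barcode sequences in common. After filters and removal of copies, where the same sequence held over 10 times more UMIs in the other library, 4922 and 7568 barcodes were retained. Cell classes were set by UMIs of marker genes that include none of the 7 genes. CD8 T barcodes numbered 344 in library 1 and 240 in library 2, regulatory T (Foxp3-positive) 38 and 6, conventional CD4 T 23 and 9, NK 144 and 37, and myeloid 1062 and 1146. Only between 0 and 26 barcodes of these classes in a library had a sequence found in both libraries, and none was in the same class in both. Markers not used for the gates were set against the names. Levels are given as CPM, the counts of a gene scaled to a common class total. The 4 regulatory T check markers (Il2ra, Ikzf2, Ikzf4, Capg) summed to 2057 and 1555 CPM in regulatory T barcodes. The sums were 479 and 411 CPM in CD8 T, 523 and 780 CPM in conventional CD4 T and 837 and 727 CPM in myeloid barcodes. Il2ra and Ikzf2 were higher in regulatory T barcodes than in the other T cell classes in each library. Capg in library 2 (81.8 CPM) and Ikzf4 in library 1 (24.9 CPM) were not. Melanoma RNA was in 1923 and 4471 further barcodes despite the CD45 sort. The 5 NK check markers summed to 9041 and 5214 CPM in NK barcodes. The 5 CD8 T check markers (Gzmb, Gzmk, Nkg7, Ccl5, Cd5), of which most are also known from NK cells, summed to 9065 and 7153 CPM in CD8 T barcodes but to 17253 and 13575 CPM in NK barcodes, so they do not separate these classes. The conventional CD4 T class of library 2 lacked its check markers. Its 9 barcodes held no UMI of Cd40lg, Cd5 or Cd6, so the name rests on the gate alone there.

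On the mm10 build, 3 of the receptor genes lie on chromosome 4 in forward orientation. Tnfrsf9 spans 150914562 to 150946102, Tnfrsf4 spans 156013843 to 156016612 and Tnfrsf18 spans 156026164 to 156028895, with 9551 bases between Tnfrsf4 and Tnfrsf18. Cd28 (60716800 to 60773359) and Icos (60977927 to 61000320) lie on the forward strand of chromosome 1 with Ctla4 between them. Cd27 lies on the reverse strand of chromosome 6 (125232622 to 125237010) and Tnfsf9 on the forward strand of chromosome 17 (57105325 to 57107757). The libraries count 3′ ends, so reads come mostly from last exons and 3′ UTRs, which in Tnfrsf4 lie from 156016362 to 156016612 and from 156016433 to 156016612. Isoforms that differ at their start are not told apart.

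Promoter windows are shown for Tnfrsf9, Tnfrsf4 and Tnfrsf18, since CD8 T barcodes held all 3 RNAs while NK barcodes held no Tnfrsf4. They are RefSeq windows of 300 bases on GRCm38.p6, the build also called mm10, from 250 bases before to 50 bases after an annotated start, written 5′ to 3′ on the forward strand. RefSeq windows were found for 4 of the 7 genes, with 2 starts for Tnfrsf9. Capitals mark matches to a kappaB consensus (NF-kB) and to the AP-1 motif TGANTCA, searched on both strands.

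Tnfrsf9, first start, chr4:150919905-150920204: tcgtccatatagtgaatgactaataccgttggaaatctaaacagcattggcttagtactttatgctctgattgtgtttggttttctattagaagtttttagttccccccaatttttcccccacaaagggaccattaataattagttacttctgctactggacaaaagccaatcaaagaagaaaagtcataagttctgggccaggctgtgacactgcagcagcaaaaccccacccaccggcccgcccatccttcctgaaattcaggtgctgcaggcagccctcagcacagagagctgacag

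Tnfrsf9, second start, chr4:150927749-150928048: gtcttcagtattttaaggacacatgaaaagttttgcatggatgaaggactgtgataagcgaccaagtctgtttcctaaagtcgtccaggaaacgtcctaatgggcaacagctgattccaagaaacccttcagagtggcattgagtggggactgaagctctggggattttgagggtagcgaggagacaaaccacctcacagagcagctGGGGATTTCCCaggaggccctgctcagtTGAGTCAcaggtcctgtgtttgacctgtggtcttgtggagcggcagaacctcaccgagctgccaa

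Tnfrsf4, chr4:156013445-156013744: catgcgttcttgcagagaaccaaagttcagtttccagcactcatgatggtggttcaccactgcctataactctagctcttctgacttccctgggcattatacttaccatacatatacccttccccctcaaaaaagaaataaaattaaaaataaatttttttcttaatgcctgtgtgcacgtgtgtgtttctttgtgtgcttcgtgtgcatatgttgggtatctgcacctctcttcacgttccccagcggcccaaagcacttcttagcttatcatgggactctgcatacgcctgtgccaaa

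Tnfrsf18, chr4:156026072-156026371: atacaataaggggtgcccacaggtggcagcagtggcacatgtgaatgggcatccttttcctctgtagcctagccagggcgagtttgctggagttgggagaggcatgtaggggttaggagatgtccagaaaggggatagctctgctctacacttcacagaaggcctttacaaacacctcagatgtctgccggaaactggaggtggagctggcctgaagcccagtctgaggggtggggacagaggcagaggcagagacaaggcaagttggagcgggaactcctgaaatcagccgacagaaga

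The window at the second Tnfrsf9 start held 2 overlapping kappaB matches, beginning 43 and 42 bases before the start, and 1 AP-1 match beginning 15 bases before it. The other windows shown, and that of Cd27, held neither motif. Of 32851 RefSeq windows of the same length, 8.46% held the kappaB consensus and 7.81% the AP-1 motif. The NFAT core GGAAA was in all of these 5 windows, and in 61.3% of all windows, and its matches partly overlap kappaB ones. These are matches of letters and not sites of binding.

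The 6 receptors were lymphocyte RNAs. A gene counted here as higher or lower in a class when its CPM ratio was at least 2 in that direction in library 1 and in library 2. Only genes with 20 or more UMIs over the 2 classes in each library were measured. In myeloid barcodes each receptor lay between 0.953 and 4.03 CPM, and in CD8 T barcodes between 116 and 439 CPM. All 6 were lower in myeloid barcodes, where 8.04% of 8276 measured genes were lower and 17.6% higher. The ratio of myeloid to CD8 T barcodes for Tnfrsf4 was 0.00289 in library 1 (95% exact conditional interval 0.000785 to 0.00747) and 0.00760 in library 2 (0.00301 to 0.0160). For Cd27 it was 0.0143 (0.00513 to 0.0320) and 0.0278 (0.0114 to 0.0590). All intervals here are at 95% and cover counting error only.

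**Figure D1:**
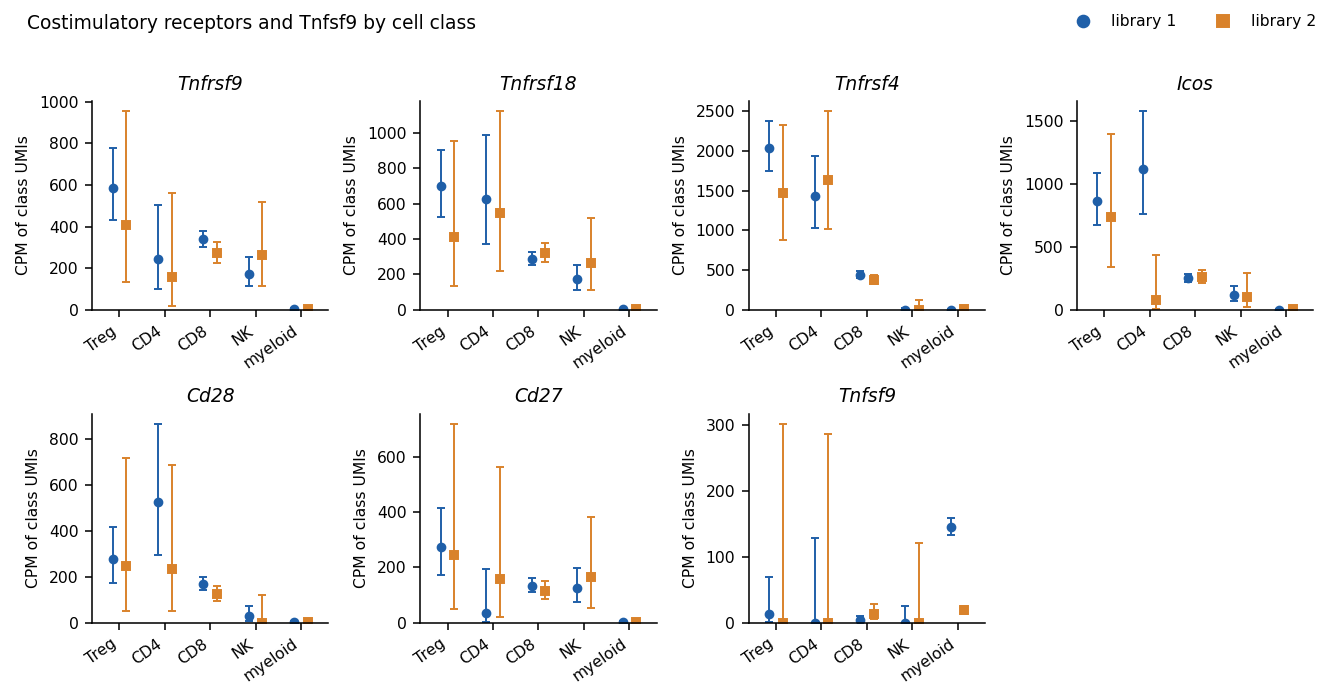
CPM of each of the 7 genes (vertical axes, linear, a scale of its own in each panel) in regulatory T (Treg), conventional CD4 T (CD4), CD8 T, NK and myeloid barcodes. Points are the class sums of library 1 (circles) and library 2 (squares), and bars are exact Poisson 95% intervals. Tnfrsf4 lies between 1430 and 2044 CPM in both CD4-lineage classes and at 0 in NK barcodes. The highest Tnfsf9 point is that of myeloid barcodes of library 1, but intervals of classes with few barcodes reach up to 302 CPM.

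Shares of barcodes with a UMI gave the same picture after each barcode was thinned to 500 UMIs. At least 1 of the 6 receptors was seen in 97.4% of regulatory T barcodes of library 1 (Clopper-Pearson interval 86.2 to 99.9) and 66.7% in library 2 (22.3 to 95.7). Conventional CD4 T barcodes were at 78.3% (56.3 to 92.5) and 77.8% (40.0 to 97.2), CD8 T at 51.7% (46.3 to 57.1) and 47.1% (40.6 to 53.6), and NK at 25.0% (18.2 to 32.9) and 37.8% (22.5 to 55.2). Myeloid barcodes were at 0.565% (0.208 to 1.23) and 0.873% (0.419 to 1.60). Melanoma barcodes are set beside them as cells not known to carry these receptors, although they held the receptor RNAs in other proportions than CD8 T barcodes. They were at 0.936% (0.556 to 1.48) and 0.760% (0.527 to 1.06). The myeloid and melanoma intervals overlapped in both libraries, so the myeloid shares are not read as expression, while every lymphoid share lay above both. Median depths before thinning were 2232.5 and 1622.5 UMIs in myeloid, 1618 and 1460.5 in CD8 T and 17878 and 11743 in melanoma barcodes. A further 359 and 178 barcodes with T cell RNA that met no T cell class gate had a receptor in 47.6% (42.4 to 52.9) and 46.6% (39.1 to 54.2).

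Tnfrsf4, a receptor known to sustain T cell survival, had the highest ratio of regulatory T to CD8 T barcodes among the 6 receptors in both libraries. Regulatory T barcodes held 164 UMIs in library 1 (2044 CPM, exact Poisson interval 1743 to 2382) and 18 in library 2 (1473 CPM, 873 to 2328). CD8 T barcodes held 388 UMIs (439 CPM, 396 to 485) and 170 (372 CPM, 318 to 432). The intervals of the classes did not overlap in either library. The ratio of regulatory T to CD8 T was 4.66 (3.85 to 5.60) in library 1 and 3.96 (2.29 to 6.45) in library 2. Conventional CD4 T barcodes held 41 UMIs (1430 CPM, 1026 to 1940) and 21 (1637 CPM, 1013 to 2502), close to the regulatory T level. Of these, 11 UMIs lay in 1 of the 23 barcodes of library 1 and 10 in 1 of the 9 barcodes of library 2. The conventional class rests on the lack of a Foxp3 UMI at median depths of 1154 and 670 UMIs. It may thus hold regulatory T cells whose Foxp3 RNA was not captured, which was not tested. Ikzf2 was at 105 and 468 CPM in this class, 947 and 900 CPM in regulatory T and 177 and 182 CPM in CD8 T barcodes. At 500 UMIs a barcode, 57.9% of regulatory T barcodes of library 1 (40.8 to 73.7) and 12.8% of CD8 T barcodes (9.45 to 16.8) had a Tnfrsf4 UMI. In library 2 the shares were 33.3% (2 of 6 barcodes, 4.33 to 77.7) and 12.5% (8.59 to 17.4), and their intervals overlapped.

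Icos and Cd27 were also higher in regulatory T than in CD8 T barcodes. With Tnfrsf4 they made 3 of the 6 measured receptors, where 1.69% of 2964 measured genes were higher and 0.675% lower. Icos, the inducible relative of Cd28, reached 860 CPM in regulatory T barcodes of library 1 (669 to 1089) and 737 CPM in those of library 2 (337 to 1398). CD8 T barcodes had 251 CPM in library 1 (219 to 287) and 260 CPM in library 2 (216 to 311), below the regulatory T intervals of both libraries. Its ratio was 3.42 (2.57 to 4.50) and 2.83 (1.26 to 5.56). Cd27, a receptor of naive and memory T cells, passed at ratios of 2.05 (1.24 to 3.26) and 2.12 (0.423 to 6.54), and the second rests on 3 UMIs. Its call was lost when the highest doublet scores were kept, when 1 UMI of T cell RNA was enough, without the limit on myeloid UMIs and as a mean over barcodes.

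The other 3 receptors did not pass. Tnfrsf18, a receptor that marks regulatory T cells, was at 698 and 409 CPM in regulatory T and 287 and 319 CPM in CD8 T barcodes, with ratios of 2.43 (1.78 to 3.25) and 1.28 (0.410 to 3.06). Tnfrsf9 was at 586 and 409 CPM against 338 and 271 CPM, with ratios of 1.73 (1.24 to 2.36) and 1.51 (0.482 to 3.62). Cd28 was at 274 and 246 CPM against 170 and 122 CPM, with ratios of 1.62 (0.983 to 2.54) and 2.005 (0.401 to 6.17). All 6 receptors thus had ratios above 1 in both libraries, but in library 2 the interval lay above 1 only for Tnfrsf4 and Icos. The median log2 ratio of the 6 was 1.16 and 1.04, against 0.00 and 0.82 over all 2964 genes, with a class at 0 set to 3 UMIs. In library 2 this puts every gene unseen in regulatory T barcodes at 246 CPM. The 0.82 is therefore not read as a general rise. Melanoma markers summed to 274 and 491 CPM in regulatory T and 258 and 606 CPM in CD8 T barcodes. The class of library 2 has 6 barcodes and 12219 UMIs, and 3 UMIs in it make 246 CPM. With at least 1000 UMIs a barcode it kept 3 barcodes, and 0 of the 6 receptors then passed. With regulatory and conventional CD4 T barcodes pooled, an alternative chosen after seeing the data, 1 of 6 passed.

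Against conventional CD4 T barcodes, Tnfrsf4 was lower in CD8 T barcodes and the other 5 receptors did not pass. The Tnfrsf4 ratio of CD8 T to conventional CD4 T was 0.307 (0.222 to 0.435) and 0.227 (0.144 to 0.376), 1 of 6 receptors where 2.09% of 2963 measured genes were lower and 1.08% higher. In library 2, 10 of the 21 Tnfrsf4 UMIs of the conventional CD4 T class lay in 1 barcode. Tnfrsf18 was at 287 and 319 CPM in CD8 T and 628 and 546 CPM in conventional CD4 T barcodes, ratios of 0.458 (0.284 to 0.785) and 0.585 (0.277 to 1.48). Cd28 was at 170 and 122 CPM against 523 and 234 CPM, ratios of 0.325 (0.191 to 0.594) and 0.524 (0.170 to 2.62). Icos differed between the libraries. It held 32 UMIs in 23 conventional CD4 T barcodes of library 1 (1116 CPM, 763 to 1575) and 1 UMI in the 9 barcodes of library 2 (78.0 CPM, 1.97 to 434). Its ratio was 0.225 (0.155 to 0.337) in library 1 and 3.34 (0.588 to 133) in library 2. Regulatory and conventional CD4 T barcodes could be compared for Tnfrsf4 alone, with ratios of 1.43 (1.01 to 2.07) and 0.900 (0.452 to 1.77), which were not called, where 0.568% of 176 measured genes were higher and 0% lower. In library 1, where the class holds more barcodes, Tnfrsf9 was 2.40 times (1.08 to 6.29) and Cd27 7.86 times (1.27 to 325) higher in regulatory T barcodes, the second against 1 UMI. Tnfrsf18 had a ratio of 1.11 (0.644 to 2.01) there, Icos 0.771 (0.500 to 1.21) and Cd28 0.524 (0.260 to 1.09), with intervals that held 1.

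**Figure D2:**
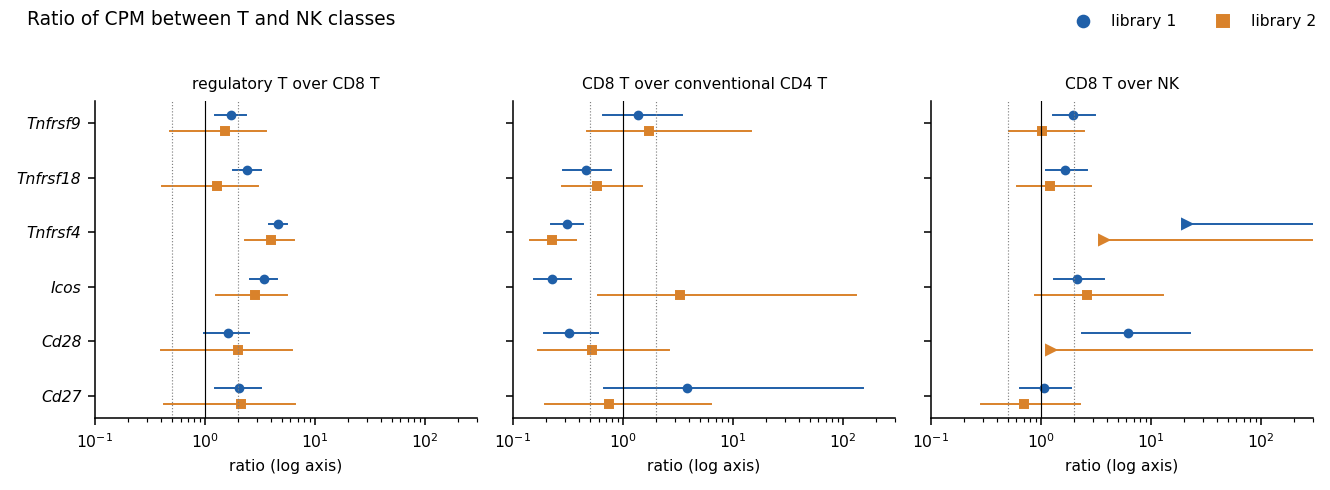
Ratio of CPM (horizontal log axis) for regulatory T over CD8 T, CD8 T over conventional CD4 T and CD8 T over NK barcodes, for each receptor in library 1 (circles) and library 2 (squares). Bars are exact conditional 95% intervals, drawn up to 300, and dotted lines stand at ratios of 0.5 and 2. Where NK barcodes held 0 UMIs, arrowheads mark the ratio with 3 UMIs put there. These bars start at the arrowhead, above the exact lower limit. Tnfrsf4 lies beyond the dotted line in both libraries in all 3 panels.

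Set against NK barcodes, CD8 T barcodes were higher in Tnfrsf4 and Icos, and the other 4 receptors did not pass. Tnfrsf4 had 388 and 170 UMIs in CD8 T barcodes and 0 in the 144 and 37 NK barcodes. With the NK level put at 3 UMIs per library, Tnfrsf4 was 21.2-fold higher in CD8 T barcodes of library 1 and 3.78-fold higher in library 2. The exact lower limits of the ratios were 17.2 and 3.04. A count of 0 allows a share of up to 2.53% and 9.49% of NK barcodes with a UMI (Clopper-Pearson). Icos was at 251 and 260 CPM in CD8 T and 117 and 98.4 CPM in NK barcodes, ratios of 2.14 (1.31 to 3.74) and 2.65 (0.884 to 13.0), the second against 3 UMIs. These were 2 of 6 receptors, where 4.06% of 3054 measured genes were higher and 3.44% lower. With at least 1000 UMIs a barcode, which left 47 and 7 NK barcodes, 0 of 6 passed, and without the limit on myeloid UMIs 1 of 6 did.

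NK barcodes did hold the other TNF receptor family members. Tnfrsf9 had 25 UMIs (173 CPM, 112 to 255) and 8 UMIs (262 CPM, 113 to 517) in NK barcodes, with CD8 T over NK ratios of 1.96 (1.30 to 3.08) and 1.03 (0.509 to 2.45). Tnfrsf18 had 25 and 8 UMIs there as well, with ratios of 1.67 (1.10 to 2.62) and 1.22 (0.602 to 2.87). Cd27 was at 134 and 116 CPM in CD8 T and 124 and 164 CPM in NK barcodes, ratios of 1.08 (0.652 to 1.88) and 0.707 (0.285 to 2.27). Cd28 had 150 and 56 UMIs in CD8 T and 4 and 0 UMIs in NK barcodes. Its ratio was 6.15 (2.35 to 22.9) in library 1. In library 2, with the NK level put at 3 UMIs, the ratio was 1.24 and did not pass. Its exact lower limit there was 0.979. At 500 UMIs a barcode, Tnfrsf9 was seen in 6.94% (3.38 to 12.4) and 10.8% (3.03 to 25.4) of NK barcodes, against 0.468% (0.214 to 0.887) and 0.313% (0.171 to 0.525) of melanoma barcodes. Gamma delta T markers (Trdc, Tcrg-C1, Trdv4) summed to 82.8 and 32.8 CPM in NK barcodes and 4.53 and 0 CPM in CD8 T barcodes, and their part in the NK values was not tested.

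Within CD8 T barcodes, a Tnfrsf4 UMI was more frequent where a Tnfrsf9 UMI was seen. After thinning to 500 UMIs, Tnfrsf4 was seen in 12 of 40 Tnfrsf9-positive barcodes of library 1 (30.0%, 16.6 to 46.5) and in 32 of 304 without a Tnfrsf9 UMI (10.5%, 7.31 to 14.5). In library 2 it was in 7 of 22 (31.8%, 13.9 to 54.9) and 23 of 218 (10.6%, 6.81 to 15.4). The intervals were apart in library 1 and overlapped between 13.9% and 15.4% in library 2. At 1000 UMIs a barcode the shares were 38.7% against 16.7% and 39.0% against 20.5%. Barcodes of 1 library share their source, so these intervals are not those of independent samples.

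The pairs with Cd28 had overlapping intervals in both libraries. Icos was seen in 26.3% of Cd28-positive CD8 T barcodes of library 1 (13.4 to 43.1) and 13.1% of those without (9.51 to 17.4), and in 21.1% (6.05 to 45.6) against 13.1% (8.97 to 18.3) in library 2. Tnfrsf4 was seen in 2.63% (0.0666 to 13.8) of Cd28-positive barcodes and 14.1% of the others in library 1, and in 5.26% (0.133 to 26.0) and 13.1% in library 2. At 1000 UMIs a barcode these were 21.4% and 22.0%, and 18.2% and 25.8%. Icos itself was in 5.00% (0.611 to 16.9) of Tnfrsf9-positive barcodes of library 1 and 15.8% of the others, but in 13.6% and 13.8% in library 2. No CD8 T barcode thinned to 500 UMIs held more than 3 of the 6 receptors.

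**Figure D3:**
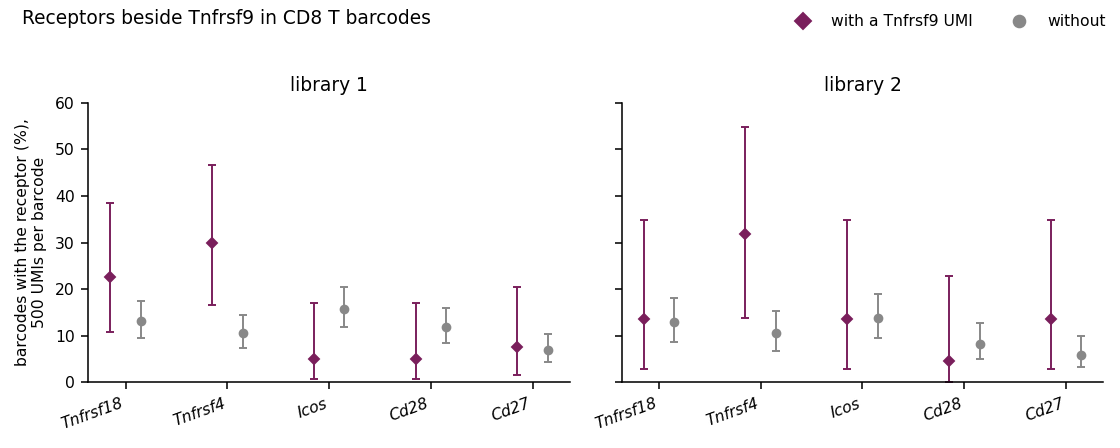
Share of CD8 T barcodes with a UMI of each other receptor (vertical axis, percent) among those with a Tnfrsf9 UMI (diamonds) and those without (circles), in library 1 (left) and library 2 (right), each barcode thinned to 500 UMIs. Bars are Clopper-Pearson 95% intervals. Tnfrsf4 stands at 30.0% and 31.8% with Tnfrsf9 and at 10.5% and 10.6% without it.

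Tnfsf9, the only ligand among the 7 genes, was a myeloid RNA in library 1. It held 459 UMIs in myeloid barcodes of library 1 (146 CPM, 133 to 160) and 46 in those of library 2 (18.6 CPM, 13.6 to 24.8). CD8 T barcodes held 3 UMIs (3.40 CPM, 0.700 to 9.92) and 6 (13.1 CPM, 4.82 to 28.6), and NK and conventional CD4 T barcodes held 0. Upper limits of these zeros were 25.5 and 121 CPM in NK and 129 and 288 CPM in conventional CD4 T barcodes. The ratio of myeloid to CD8 T was 43.0 (14.6 to 209) in library 1 and 1.41 (0.603 to 4.05) in library 2, so it was not called. As means over barcodes it passed in both libraries, as 1 of 7 genes. With class sums, 17.6% of 8276 measured genes were higher in myeloid barcodes and 8.04% lower. Melanoma barcodes held 9.60 CPM (8.59 to 10.7) in library 1 and 10.1 CPM (9.22 to 10.9) in library 2. Thinned to 500 UMIs, 6.21% of myeloid barcodes of library 1 (4.84 to 7.84) and 0.698% of library 2 (0.302 to 1.37) had a Tnfsf9 UMI, against 0.520% (0.250 to 0.954) and 0.380% (0.222 to 0.608) of melanoma barcodes. In library 2 the intervals of these shares overlapped, while those of the CPM did not. Without thinning the myeloid shares were 21.8% and 3.14% and the melanoma shares 15.3% and 10.9%, at median depths of 2232.5 and 1622.5 UMIs against 17878 and 11743.

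Between the libraries, Tnfsf9 in myeloid barcodes was 7.86 times higher (5.79 to 10.9) in library 1, rank 7 of 9417 measured genes by this ratio. A gene was measured here with at least 20 UMIs in the class over both libraries, and library 1 exceeded library 2 by 2 times or more in 2.77% of genes and fell below it by as much in 3.47%. The difference was present in both large subclasses. Monocyte barcodes, of which there were 476 and 305, held 160 and 5 UMIs (162 and 13.6 CPM), a ratio of 11.9 (5.01 to 37.2), where 5.84% of 5766 genes were higher and 2.64% lower. Macrophage barcodes, 463 and 606, held 253 and 30 UMIs (132 and 16.7 CPM), a ratio of 7.87 (5.38 to 11.9), where 3.04% of 8685 were higher and 3.17% lower. Monocyte against macrophage barcodes gave ratios of 1.23 (1.003 to 1.51) and 0.812 (0.246 to 2.11), neither past 2-fold, where 4.84% of 7374 genes were higher and 9.72% lower in monocyte barcodes. Melanoma barcodes gave a ratio between libraries of 0.955, where 0.85% of 13297 genes were higher and 3.38% lower.

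Tnfsf9 UMIs were spread over many barcodes. In library 1, 232 of 1062 myeloid barcodes were positive, 53.4% of them with a single UMI, 18 with at least 5, and the highest with 10. In library 2, 36 of 1146 were positive and the highest had 4. The myeloid ratio between libraries stayed between 6.69 and 9.47 over the alternatives run. It was 8.16 without barcodes that held a haemoglobin UMI and 8.34 without those whose sequence occurred in both libraries. Neutrophil barcodes (9 and 11) held 1 and 0 Tnfsf9 UMIs and dendritic barcodes (6 and 2) held 1 and 0, so the ligand could not be measured there. Dendritic cells set by a second gate, chosen after seeing the data, numbered 11 and 16 and also held 1 and 0 UMIs. Other RNA moved with the libraries too. In myeloid barcodes melanoma markers summed to 287 and 775 CPM and haemoglobin genes to 915 and 41.6 CPM. The myeloid Tnfsf9 ratio was 8.16 without haemoglobin-positive barcodes, as given above, and 7.86 with melanoma RNA held under 0.2% of UMIs. The cause of the difference between libraries was not tested. With 1 library per genotype, hosts, tumour pools and preparation cannot be told apart.

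**Figure D4:**
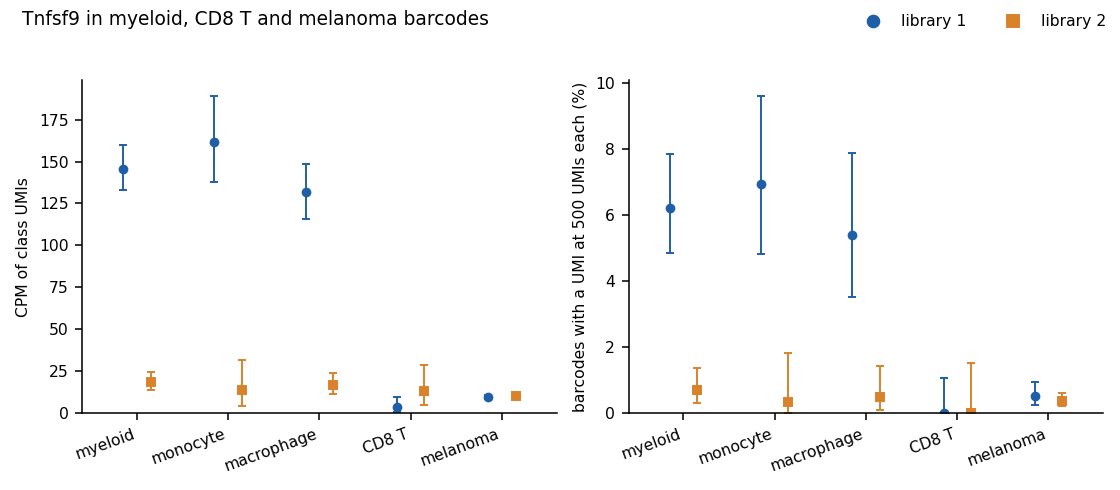
Tnfsf9 in myeloid, monocyte, macrophage, CD8 T and melanoma barcodes as CPM of the class (left) and as the share of barcodes with a UMI at 500 UMIs each (right), for library 1 (circles) and library 2 (squares). Bars are exact Poisson (left) and Clopper-Pearson (right) 95% intervals. The monocyte and macrophage points of library 1 lie at 162 and 132 CPM, those of library 2 at 13.6 and 16.7 CPM.

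No measured receptor differed so between the libraries in CD8 T, regulatory T or NK barcodes. In CD8 T barcodes 0 of the 6 measured receptors were at least 2 times apart between the libraries, where 6.02% of 5993 measured genes were higher and 3.05% lower in library 1. Their ratios of library 1 to library 2 ran from 0.900 for Tnfrsf18 to 1.39 for Cd28. In regulatory T barcodes 0 of 6 passed, where 13.6% of 683 were higher and 6.73% lower, and in NK barcodes 0 of 4, where 13.3% of 1186 were higher and 3.37% lower. In conventional CD4 T barcodes Icos passed as 1 of 3, where 12.1% of 280 genes were higher and 8.57% lower. In the T cell barcodes outside the classes Tnfrsf4 passed as 1 of 6, where 10.6% of 4012 were higher and 7.2% lower. Haemoglobin genes in CD8 T barcodes summed to 1243 and 19.7 CPM and melanoma markers to 258 and 606 CPM.

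Rel, Nfkbia, Traf1 and Icosl were also higher in myeloid barcodes of library 1. Of 26 measured genes of a 42-gene costimulation list, 4 were at least 2 times higher in library 1 and 0 lower. Of all 9417 measured genes 2.77% were higher and 3.47% lower. Rel, the gene targeted in the study, had 216 CPM in library 1 and 45.2 CPM in library 2, 4.79 times apart (3.92 to 5.90). The 3′ counts need not report on the deleted exons, and these values were not used to name the libraries. Nfkbia, which encodes the inhibitor IkB-alpha, had 2000.3 and 719 CPM, 2.78 times apart (2.64 to 2.94). Traf1, an adaptor that binds 4-1BB, had 132 and 51.6 CPM, 2.55 times apart (2.09 to 3.14), and Icosl, the ICOS ligand, 9.21 and 3.63 CPM, 2.54 times apart (1.17 to 6.09). The other NF-kB subunit genes did not pass. Nfkb1 was at 109 and 70.6 CPM, Nfkb2 at 36.2 and 27.4 CPM, Rela at 78.5 and 60.5 CPM and Relb at 27.3 and 26.6 CPM. Within library 1, at 500 UMIs a barcode, Nfkbia was seen in 72.7% of Tnfsf9-positive myeloid barcodes (60.4 to 83.0) and 54.9% of the others (51.8 to 58.0). Traf1 was in 16.7% (8.62 to 27.9) and 7.53% (5.97 to 9.35) and Rel in 15.2% (7.51 to 26.1) and 12.4% (10.5 to 14.7), with overlapping intervals. Rela was in 6.06% (1.68 to 14.8) and 4.52% (3.31 to 5.999), and Nfkb1 in 4.55% (0.947 to 12.7) and 6.02% (4.63 to 7.69). Library 2 had 8 Tnfsf9-positive barcodes at this depth, of which 5 held Nfkbia (62.5%, 24.5 to 91.5), against 28.6% of the other 1138 (26.0 to 31.4). These intervals overlapped. Rel, Traf1 and Nfkb1 were each in 1 of the 8 and Rela in 0.

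Among other ligands of the receptors, Cd86 was a myeloid RNA, while Tnfsf4 and Cd70 were not seen in myeloid barcodes. In myeloid barcodes Cd86, a ligand of CD28, was at 112 and 76.3 CPM against 14.7 and 13.1 CPM in CD8 T barcodes, 6.80 times higher over both libraries (4.31 to 11.4). Tnfsf4 and Cd70, the ligands of OX40 and CD27, had 0 UMIs in myeloid barcodes of both libraries, where 3 UMIs make 0.953 and 1.21 CPM. In CD8 T barcodes Tnfsf4 was at 15.8 and 32.8 CPM and Cd70 at 14.7 and 10.9 CPM. Tnfsf18, the GITR ligand, had 1 UMI in all myeloid barcodes. Cd80, the other CD28 ligand of the list, was higher in monocyte than in macrophage barcodes, at 32.4 and 48.9 CPM against 4.16 and 6.68 CPM (6.85 times, 4.01 to 12.1).

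The remaining genes of the costimulation list were described by count. In regulatory T against CD8 T barcodes, 2 of 21 measured genes were higher and 1 lower, where 1.69% of all 2964 measured genes were higher and 0.675% lower. Ctla4, an inhibitory receptor of the CD28 family, was at 860 and 655 CPM against 93.9 and 173 CPM (6.89 times, 5.19 to 9.10), and Il2ra, part of the interleukin-2 receptor and itself a check marker, was 6.77 times higher (3.83 to 11.6). Pdcd1 was lower, at 149.6 and 81.8 CPM against 342 and 304 CPM (0.428 times, 0.226 to 0.739). Its regulatory T value in library 2 lay below the 246 CPM that 3 UMIs make there. In CD8 T against conventional CD4 T barcodes 1 of 20 was lower, where 2.09% of all 2963 measured genes were lower and 1.08% higher. This was Birc2, an inhibitor of NF-kB-inducing kinase signalling, at 67.9 and 59.0 CPM against 244 and 156 CPM (0.299 times, 0.151 to 0.676). Its conventional CD4 T value in library 2 lay below the 234 CPM that 3 UMIs make there.

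CD8 T against NK barcodes had 2 of 20 higher and 2 lower, where 4.06% of all 3054 measured genes were higher and 3.44% lower. The survival gene Bcl2a1b was 3.32 times higher (1.99 to 5.995) and Pdcd1 had 0 UMIs in NK barcodes, while Bcl2 was lower, at 109 and 43.7 CPM against 566 and 459 CPM, and Pik3r1, a subunit of phosphatidylinositol 3-kinase, at 89.4 and 43.7 CPM against 352 and 164 CPM. Bcl2a1b has near-identical copies that the counting could split. In myeloid against CD8 T barcodes 3 of 30 were higher (Cd86, Bcl2l1 and Birc3) and 8 lower, with Pdcd1, Lck and Ctla4 lowest. Of all 8276 measured genes 17.6% were higher there and 8.04% lower. In monocyte against macrophage barcodes 5 of 24 were higher, 4 of them among 12 adaptor and NF-kB genes, and 2 lower. Of all 7374 measured genes 4.84% were higher there and 9.72% lower. Traf1 was at 240 and 114 CPM in monocyte and 58.8 and 26.2 CPM in macrophage barcodes (4.78 times higher, 3.92 to 5.84), and Map3k14, the kinase NIK, was 3.46 times higher (2.38 to 5.06). Bcl2l1 was lower, at 30.3 and 43.4 CPM against 131 and 129 CPM, and so was Myc.

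The genes most like each receptor over 8 cell classes in 2 libraries (16 points, Pearson correlation of log2(CPM + 10), among 8234 genes) were T cell genes. Points of a class share its gate and points of a library its preparation, so r is a description. For Tnfrsf9 they were Thy1 (r = 0.975), Ptprcap (0.975) and Ltb (0.975), and for Tnfrsf18 Zap70 (0.967), Cd2 (0.965) and Lck (0.964). For Tnfrsf4 they were the gate marker Trac (0.966), Bcl11b (0.965) and Fam169b (0.963), and for Icos Gimap7 (0.982), Ltb (0.948) and the gate marker Trbc2 (0.944). Cd28 was most like Lat (0.975), the gate marker Trac (0.971) and Fam169b (0.970), and Cd27 most like Ptprcap (0.978), Tnfrsf9 (0.963) and Cd2 (0.942). Tnfsf9 was most like Rasgef1b (0.894), Tmem51 (0.873) and Cebpd (0.872). Without the small neutrophil and dendritic classes (12 points, chosen after seeing the data), the gene most like Tnfsf9 was Tnf (0.974).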

How the data were processed

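The 2 libraries came as 1 matrix of counts, that is UMIs per gene and barcode, deposited by the authors and tied to Cell Ranger and mm10 per the submitters' processing notes and to software version 3.0.2 per the file headers. No label ties a barcode ending to a genotype. The members and lists were chosen with earlier results of these data known.

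Barcodes were retained with at least 500 UMIs, 200 genes and at most 10% mitochondrial UMIs. Copies, with over 10 times the UMIs under the same sequence in the other library, were left out. Scrublet's own threshold (scanpy 1.11.5) marked 0.0136% of barcodes in library 1 and 0 in library 2 and so did not work, and the top 6% of scores were left out instead. Classes were gated on marker UMIs. T cell classes needed at least 2 UMIs of T cell receptor complex genes, and then Cd8a or Cd8b1 without Cd4 and Foxp3, Cd4 without Cd8 and Foxp3, or Foxp3 without Cd8. NK barcodes needed Ncr1 or Klrb1c, and myeloid barcodes at least 5 UMIs of a myeloid list. Immune classes held under 0.5% melanoma RNA.

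The UMIs of each class were added up within each library and scaled to CPM. With 1 library per genotype no test was made and no p-value is given. Intervals at 95% (exact Poisson, exact conditional binomial for ratios, Clopper-Pearson for shares; scipy 1.17.1) cover counting error only. A class at 0 was set to 3 UMIs per library for ratios, and these ratios are not exact 95% limits. Levels are not scaled by gene length, so different genes are not compared in level. Droplet libraries hold free RNA, so shares were also taken after thinning each barcode to 500 UMIs and set beside melanoma barcodes. The call rule was run on simulated Poisson counts for myeloid and for regulatory T against CD8 T barcodes only. These counts held no clustering of UMIs in single barcodes and no difference between libraries. They therefore cannot show how the rule fares under either. Alternatives covered doublets, copies, depth, gates, the UMI minimum per gene and the weighting of barcodes. Named genes were the 7 members, up to 3 called pathway genes at either end of each comparison, and 3 genes most like each member. Promoter sequences are from RefSeq. A split of CD8 T barcodes by state markers is not reported here.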

Additional observations from a re-analysis of the deposited data

How the results depend on the processing

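No paired analysis was possible because there is 1 library per genotype. Of the main results under the alternatives, 276 values stayed and 22 moved. A count stayed when it was equal to the main count or within a set fold of it. Shares and ratios stayed when they lay within the interval of the main value. Counts and shares could only stay or move, and counts of 0 that stayed at 0 are among those that stayed. Only the Tnfsf9 ratios between libraries could have reversed, and none did. Of the other values, ratios of single genes and counts over all genes among them, 560 stayed, 76 moved, 14 were weaker and 6 stronger. With at least 1000 UMIs a barcode, receptors called higher numbered 0 in place of 3 in regulatory T against CD8 T barcodes and 0 in place of 2 in CD8 T against NK barcodes. The Tnfrsf4 share of regulatory T barcodes in library 2 was 0%. Without the limit on myeloid UMIs, 2 receptors in place of 1 were lower in CD8 T than in conventional CD4 T barcodes and 1 in place of 2 was higher in CD8 T than in NK barcodes. With sums of barcodes thinned to 500 UMIs these were 2 and 0. With at least 10 UMIs per gene, 4 members in place of 1 were called between libraries in myeloid barcodes. Over all genes 398 were then called higher and 555 lower in library 1. Each receptor held only between 3 and 11 UMIs per library in myeloid barcodes, where the receptor shares are not read as expression. As a mean over barcodes, 1 member in place of 0 was higher in myeloid than in CD8 T barcodes, where 17.6% of measured genes were higher with class sums. With regulatory and conventional CD4 T barcodes pooled, chosen after seeing the data, 1 receptor in place of 3 was higher than in CD8 T barcodes. Shares at 1000 UMIs were 10.99% and 1.81% for Tnfsf9 in myeloid barcodes, 76.0% for Tnfrsf4 in regulatory T barcodes of library 1, 21.9% and 24.9% for Tnfrsf4 and 23.4% and 23.7% for Tnfrsf9 in CD8 T barcodes. Tnfrsf4 in CD8 T barcodes without Tnfrsf9 was then at 16.7% and 20.5%. Without thinning it was at 70.4% and 70.6% with Tnfrsf9 and 18.0% without it in library 2. The cause of these changes was not tested, apart from the deeper thinning, which keeps more UMIs by construction. Cd27 in regulatory T against CD8 T barcodes was not called with the highest doublet scores kept, T cell RNA of at least 1 UMI, at least 1000 UMIs a barcode or no limit on myeloid UMIs, or as a mean over barcodes. Counts over all genes ranged widely over the alternatives. Genes higher in regulatory T than in CD8 T barcodes ranged from 13 to 165, genes lower in CD8 T than in conventional CD4 T barcodes from 18 to 193, genes higher in CD8 T than in NK barcodes from 31 to 124, genes lower in myeloid than in CD8 T barcodes from 245 to 875, and genes higher in myeloid barcodes of library 1 from 160 to 398. Among the T and NK classes, depth limits the 6 regulatory T and 9 conventional CD4 T barcodes of library 2 most, where 3 UMIs make 246 and 234 CPM.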

Other observations

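Melanoma barcodes held RNA of the receptors in other proportions than CD8 T barcodes. Per Tnfrsf18 UMI, melanoma barcodes held 8.28 Tnfrsf9 UMIs in library 1 (5.85 to 12.05) and 5.70 in library 2 (4.36 to 7.56), against 1.18 (0.993 to 1.40) and 0.849 (0.663 to 1.09) in CD8 T barcodes. For Cd27 the values were 1.86 (1.22 to 2.87) and 3.66 (2.76 to 4.90) in melanoma, against 0.465 (0.370 to 0.580) and 0.363 (0.260 to 0.500) in CD8 T barcodes. A T cell receptor complex UMI was in 12.2% (8.01 to 17.7) and 7.87% (4.93 to 11.8) of Tnfrsf9-positive melanoma barcodes, against 7.93% (6.70 to 9.31) and 5.42% (4.76 to 6.15) of the others. Cd27 in melanoma barcodes was lower in library 1, at 1.95 CPM against 4.36 CPM in library 2, a ratio of 0.447 (0.335 to 0.588), where 3.38% of 13297 genes were lower.

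Tnfrsf4 in T cell barcodes outside the named classes was at 538 CPM (468 to 615) in library 1 and 249 CPM (191 to 320) in library 2. The ratio was 2.16 (1.62 to 2.92). It was 1 of 6 measured genes of the group, where 10.6% of 4012 genes were higher and 7.2% lower, so the count is not set apart from these shares. Check markers of these barcodes also differed, at 192 and 28.6 CPM for gamma delta T and 1233 and 339 CPM for NK. Their part in the Tnfrsf4 values was not tested.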
